A study of Mus musculus with 45 samples.

Results

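The comparison described here sets sections 6, 7 and 8 of a mouse embryo at embryonic day E5.75 against sections 10, 11 and 12 of that stage, across all genes. The members were chosen by section number, 3 sections on each side with similar numbers of detected genes, and are 6 of the 17 numbered E5.75 sections with values here, of 21 E5.75 samples and of 45 samples in the series. The embryos had no treatment, were taken fresh from the decidua, embedded and frozen, and were cut along the proximal-distal axis. Tissue from each section was collected by laser capture, in which a laser cuts chosen tissue out of a slice, and its RNA was made into libraries by Smart-seq2, which copies whole transcripts from a few cells. The labels used here give no strain, genotype or sex, and they name no tissue for the numbered sections. Nothing in them points to more than 1 embryo at E5.75, so every p-value below measures the spread between sections of what may be a single embryo and is too small as a statement about embryos in general. Section 9, which lies between the sides, and section 13 were not analysed here. The labels do not say which end of the embryo section 1 is, so directions follow the section number, and "higher" and "lower" mean higher or lower in sections 10-12.

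At this stage the embryo is a cup-shaped cylinder. The epiblast, which will form the whole body, meets the extraembryonic ectoderm, a trophoblast tissue that feeds the placenta, at a sharp boundary, and the visceral endoderm wraps both. The tissues signal across that boundary: epiblast FGF4 maintains trophoblast stem cells through the receptor FGFR2, epiblast Nodal acts on the extraembryonic ectoderm, and the extraembryonic ectoderm returns BMP4 and the proteases that mature Nodal. The pluripotency factor OCT4 (Pou5f1) and the trophoblast factor CDX2 are known to repress each other in the early embryo.

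The values are log2(FPKM + 1), where FPKM is the fragment number divided by transcript length and library size, and "level" below always means this scale. Because FPKM is divided by transcript length, levels can also be set beside each other between genes. A difference is the mean level of sections 10-12 minus that of sections 6-8, in log2 units, given with its standard error (3 sections against 3), and a difference on this scale understates the change of genes with a low FPKM. A gene passed when its Benjamini-Hochberg adjusted p from limma, a linear model fitted across all tested genes, was under 0.05. In bulk tissue, fewer cells of a type and less RNA per cell cannot be told apart. Where a gene was listed at 0 in all 3 sections of a side, its levels and adjusted p are given without a difference. The tables hold no read counts, so the depth of each library is unknown.

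At an FPKM of at least 1, sections 6, 7 and 8 had 7556, 7385 and 6923 detected genes, and sections 10, 11 and 12 had 7035, 8015 and 7465. The means were 7288 ± 327 and 7505 ± 491 (SD, n = 3), and the sides overlapped. This similarity is part of how the sections were chosen, and no test is given for it. Rn45s, the ribosomal RNA precursor, took 3.89% to 16.2% of summed FPKM on the first side and 5.71% to 14.8% on the other. All 8 epiblast markers were above 0 in each of sections 6-8, with a summed FPKM of 375 to 527, against 29.5 to 76.1 in sections 10-12, where 3 to 6 of them were above 0. Pou5f1, Tdgf1, Otx2, Fgf4, Fgf5 and Pim2 were lower in each of sections 10-12 than in any of sections 6-8, whereas the levels of Sox2 and Utf1 overlapped between the sides. For 8 extraembryonic ectoderm markers the sums were 6.53 to 7.50 in sections 6-8 and 252 to 382 in sections 10-12, where all 8 were above 0. The sides are called epiblast and extraembryonic ectoderm below from these sums, since the sample labels name no tissue. Sox2 and Utf1 do not follow that division.

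Markers of other tissues were present on both sides. In each section their sums lay below that of the side's own tissue, epiblast in sections 6-8 and extraembryonic ectoderm in sections 10-12. The 6 ectoplacental cone markers summed to 387, 18.7 and 0.16 in sections 6, 7 and 8 and to 28.0 to 37.8 in sections 10-12. The 8 visceral endoderm markers summed to 3.89 to 32.7 in sections 6-8 and to 16.6 to 39.7 in sections 10-12. Among them Afp was listed at 0 in sections 10-12 and Rbp4 was above 0 only in section 12. The 4 decidual markers summed to 0 to 4.06 and to 1.64 to 25.5, the highest being section 10, where Prl8a2 and Htra1 carried the sum and Dcn and Hoxa10 were listed at 0. Section 6 stood apart from the other sections of its side in Prl3d1, a placental lactogen of trophoblast giant cells, at a level of 8.55 against 4.23 and 0 in sections 7 and 8 and 0.41 or less in sections 10-12. The joined alpha globin genes Hba-a1Hba-a2 ranged from 0.63 to 3.86 in sections 6-8 and from 0 to 4.97 in sections 10-12. The part of these other tissues in the results below was not tested.

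Of 9167 genes tested, 264 passed (2.88%), 170 higher (1.85%) and 94 lower (1.03%). The counts of every gene list below are to be read beside these shares. At an unadjusted p under 0.05 there were 1612, and the median difference of all tested genes was 0.09. The levels of the 3 sections of each side did not overlap in any of the 264 called genes, against 2091 of all 9167 tested (22.8%). In 34 of the 170 higher genes the low side was listed at 0 throughout, and so were sections 10-12 in 18 of the 94 lower genes. In fits that each leave out 1 of the 6 sections, 107 to 171 genes passed (122, 107, 132, 171, 111 and 155 without sections 6, 7, 8, 10, 11 and 12), and 82 of the 264 passed in all 6 (57 of 170 higher, 25 of 94 lower). The genes described in most detail below are, as far as the lists allow, among these 82.

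**Figure D1:**
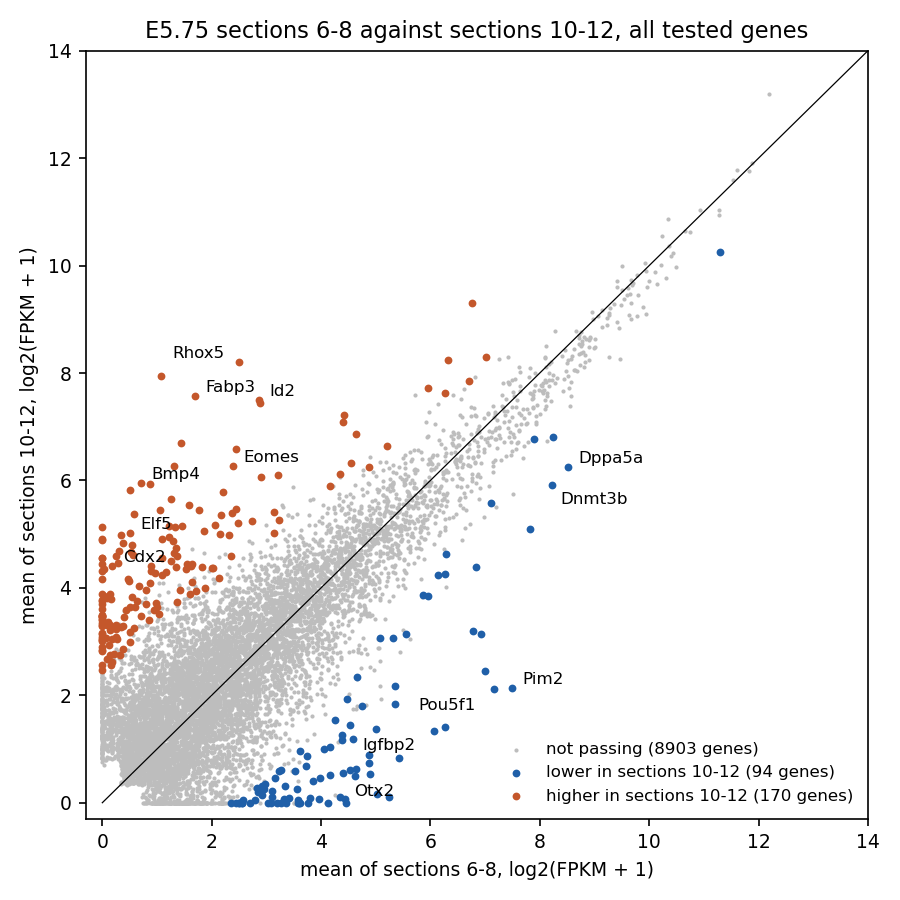
Mean level in sections 6-8 (x axis) and in sections 10-12 (y axis), both log2(FPKM + 1), for each of 9167 tested genes, with the diagonal marking equal levels. The 170 higher genes (orange) lie above and the 94 lower genes (blue) below the diagonal, and many of them rest on an axis because one side is listed at or near 0.

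The epiblast side was marked by pluripotency factors and their surface and signalling partners. Of 15 tested members of the epiblast list, 7 fell across the border, 1 rose and 7 did not pass, and the list's median difference was -2.29 (0.09 over all tested genes; 1 member had a side at 0). Pou5f1, the OCT4 transcription factor that maintains pluripotency, stood at 7.53, 6.95 and 6.996 in sections 6, 7 and 8, and at 3.70, 0 and 2.66 in sections 10, 11 and 12. The sides did not overlap, but the extraembryonic sections were far more spread than the epiblast sections. Its difference was -5.04 ± 0.76 (adjusted p = 0.00575, limma); it narrowly missed the threshold without section 6 (adjusted p = 0.0556) or section 8 (0.0504). Tdgf1, the EGF-CFC co-receptor through which Nodal signals, was at 4.40, 5.47 and 5.18 and then at 0.18, 0 and 0.29, all near 0. It fell by 4.86 ± 0.52 (adjusted p = 0.0014). Pim2, a serine/threonine kinase that favours cell survival, was at 7.86, 7.55 and 7.09 and then at 3.68, 2.47 and 0.28 (-5.36 ± 0.70, adjusted p = 0.00254), so that section 10 kept the highest level of its side for Pou5f1 and Pim2 alike. Slc7a3, a transporter of cationic amino acids, went from 4.30 to 4.59 down to 0 to 0.19.

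The upstream sequences of Pou5f1 and Tdgf1 are shown because they are a central pluripotency factor, which fell but stayed at 3.70 and 2.66 in sections 10 and 12, and the Nodal co-receptor, which was near 0 beyond the border. Each is the 250 bases before the outermost annotated start, 5′ to 3′ on the gene's strand, from RefSeq (GRCm38.p6), at chr17:35505782-35506031 on the plus strand and chr9:110946159-110946408 on the minus strand. Here and below, capitals mark matches, on either strand, to any of 7 short motifs. GCCNNNGGC is bound by AP-2 factors such as Tfap2c. GGAATG is the TEAD motif, the DNA-binding partners of Hippo signalling. The octamer ATGCAAA is read by POU factors such as OCT4. The SOX motif searched was ACAAAG and the GATA motif AGATAA. The GC box, GGGCGG, and the TATA box, TATAAA, are general promoter elements.
Pou5f1: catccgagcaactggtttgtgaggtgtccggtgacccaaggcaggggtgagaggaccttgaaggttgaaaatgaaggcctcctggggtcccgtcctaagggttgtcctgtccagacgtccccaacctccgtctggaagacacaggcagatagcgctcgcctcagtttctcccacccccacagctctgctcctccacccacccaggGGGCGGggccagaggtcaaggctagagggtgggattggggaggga
Tdgf1: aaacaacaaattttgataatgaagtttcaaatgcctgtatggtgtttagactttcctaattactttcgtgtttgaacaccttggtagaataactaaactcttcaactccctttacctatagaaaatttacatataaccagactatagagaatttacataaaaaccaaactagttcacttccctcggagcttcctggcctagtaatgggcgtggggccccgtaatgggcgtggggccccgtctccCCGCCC
Each holds a GC box, 45 bases before the start in Pou5f1 and 6 bases before it in Tdgf1, and none of the other motifs. A GC box was found in 32.7% of all 32851 RefSeq windows of this length and in 59.8% of the 9165 windows of tested genes.

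Genes of the formative and primed states, through which the epiblast passes between implantation and gastrulation, were the next group. Of 19 tested members 7 fell, 0 rose and 12 did not pass, with a median difference of -2.12 (2 members with a side at 0). Otx2, a homeobox factor of the primed epiblast, was at 4.04, 4.60 and 4.73 and was listed at 0 in sections 10, 11 and 12 (adjusted p = 0.00204). The de novo DNA methyltransferases differed in how far they fell. Dnmt3b was at 8.33, 8.16 and 8.16 and was still at 6.11, 5.94 and 5.67 beyond the border (-2.31 ± 0.25, adjusted p = 0.00141). Dnmt3a went from 4.70, 4.34 and 4.52 to 0.94, 0.89 and 0 (-3.91 ± 0.52, adjusted p = 0.00266). Dnmt3l, their cofactor without catalytic activity, did not pass, at 4.50, 4.54 and 4.49 against 2.28, 4.12 and 4.39. Of the 12 tested genes of the DNA methylation list, Dnmt3a and Dnmt3b were the 2 that passed.

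Igfbp2, which binds insulin-like growth factors outside the cell, was at 6.33, 5.55 and 6.29 and then at 2.38, 0 and 1.61, a fall of 4.73 ± 0.60 (adjusted p = 0.00221). Sox4, a transcription factor of the SOXC group, went from 4.80, 4.38 and 4.69 to 0.81, 0 and 0.68 (-4.13 ± 0.51). Fgf5, the ligand that marks the post-implantation epiblast, was at 3.41, 3.68 and 2.86 and then at 0, 0 and 0.22, and Foxd3, a repressor needed by pluripotent cells, went from 2.30, 3.29 and 3.52 to 0 in all 3. The last pair had less margin. Fgf5 did not pass without section 6, 7 or 11 (adjusted p = 0.0559 to 0.0659), and Foxd3 passed in only 1 of the fits leaving out a section (adjusted p = 0.0629 to 0.0822 in the others).

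Several well-known pluripotency genes did not change detectably at the border. Sox2, the partner of OCT4 and also a factor of trophoblast stem cells, was at 4.44, 4.52 and 4.35 and at 4.98, 4.65 and 4.39, a difference of 0.24 ± 0.35 (adjusted p = 0.79). Nanog, which guards pluripotency, was at 5.31, 5.748 and 5.10 and at 5.08, 4.34 and 4.42 (-0.77 ± 0.36, adjusted p = 0.297). The POU factor Pou3f1 was at 6.12, 6.11 and 5.21 and at 5.73, 5.91 and 5.71 (-0.03 ± 0.33, adjusted p = 0.977). The sides overlapped for Sox2 and Pou3f1, and for Nanog the highest level of sections 10-12 lay just under the lowest of sections 6-8. Utf1, L1td1, Dppa4 and Lin28a likewise did not pass, with differences between -0.98 and -0.34 (adjusted p = 0.479 to 0.711). These p-values do not show that the levels were equal. In sections 14-19 Nanog and Utf1 were still at 3.63 to 5.33 and 3.46 to 5.70, while Sox2 and Pou3f1 were at 0 to 1.05 and 0.64 to 3.75.

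Naive pluripotency genes, of the state before implantation, split. Of 8 tested, 3 were higher and 1 lower. Dppa5a, an RNA-binding protein of pluripotent cells, was at 8.64, 8.67 and 8.22 and then at 6.54, 6.12 and 6.07 (-2.27 ± 0.26, adjusted p = 0.00188). Esrrb, an orphan nuclear receptor shared by naive embryonic and trophoblast stem cells, was listed at 0 in sections 6-8 and stood at 4.35, 3.73 and 2.73 in sections 10-12 (adjusted p = 0.0111). Zfp42 (REX1) went from 2.27, 1.20 and 3.49 to 4.83, 4.87 and 5.24, and Klf5 from 0, 0 and 0.26 to 2.77, 2.78 and 2.48. All 3 higher genes lost their call in at least 4 of the 6 fits leaving out a section (highest adjusted p = 0.0602 for Esrrb, 0.119 for Zfp42 and 0.115 for Klf5).

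The extraembryonic ectoderm list gave the highest count. Of its 25 tested members 14 rose, 0 fell and 11 did not pass, with a median difference of 3.31 (4 members with a side at 0). Elf5, an ETS factor that fixes the trophoblast fate, was at 0, 0 and 1.52 in sections 6-8 and at 5.23, 5.39 and 4.42 in sections 10-12, a rise of 4.51 ± 0.59 (adjusted p = 0.00251). Cdx2, the homeobox factor that specifies trophoblast, went from 0, 0 and 0.55 to 4.32, 4.49 and 4.43 (4.23 ± 0.52, adjusted p = 0.00213). Eomes, a T-box factor of trophoblast stem cells, was already measured on the epiblast side, at 2.54, 2.47 and 2.19, and reached 6.43, 6.19 and 6.20 (3.88 ± 0.35, adjusted p = 0.000586). The sections of a side agreed closely for Cdx2 and Eomes, with an SD of 0.09 and 0.13 in sections 10-12.

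Tfap2c, the AP-2 gamma factor of trophoblast, was at 1.04, 1.26 and 0.30 and then at 6.08, 5.91 and 5.83 (5.08 ± 0.44, adjusted p = 0.000586). Ets2, an ETS factor downstream of FGF signalling in trophoblast, went from 1.27, 0.93 and 0.70 to 4.29, 3.95 and 4.60 (3.31 ± 0.50, adjusted p = 0.0057). Gata3, a trophoblast zinc finger factor, rose to 3.44, 3.16 and 3.29, but passed in only 1 of the fits leaving out a section (highest adjusted p = 0.0981). Hand1, a factor of trophoblast giant cells and the ectoplacental cone, was listed at 0 in sections 6-8 and stood at 4.66, 5.27 and 4.82 (adjusted p = 0.00113). It is 1 of 5 of the 12 tested ectoplacental cone genes that rose. Ascl2 and Plac1 of that tissue were at 2.13 or less in all of sections 10-12, whereas they were at 3.65 or more in each of sections 14-19. On the epiblast side Plac1 was at 3.55, 0.90 and 0 in sections 6, 7 and 8.

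The upstream sequences of Elf5, Cdx2 and Bmp4 are shown as those of 2 defining transcription factors and the main secreted signal of this side. They lie at chr2:103411848-103412097 on the plus strand and at chr5:147307250-147307499 and chr14:46390670-46390919 on the minus strand (GRCm38.p6, RefSeq).
Elf5: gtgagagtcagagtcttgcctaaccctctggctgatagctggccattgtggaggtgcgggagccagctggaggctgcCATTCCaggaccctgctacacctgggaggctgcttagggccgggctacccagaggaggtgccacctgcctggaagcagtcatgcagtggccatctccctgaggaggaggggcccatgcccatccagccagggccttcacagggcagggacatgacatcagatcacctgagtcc
Cdx2: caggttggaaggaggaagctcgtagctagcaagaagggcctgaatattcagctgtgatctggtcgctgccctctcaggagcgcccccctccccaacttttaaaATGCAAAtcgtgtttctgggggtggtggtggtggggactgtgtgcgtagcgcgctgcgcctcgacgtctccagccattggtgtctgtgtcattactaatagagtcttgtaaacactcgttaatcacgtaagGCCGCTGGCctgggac
Bmp4: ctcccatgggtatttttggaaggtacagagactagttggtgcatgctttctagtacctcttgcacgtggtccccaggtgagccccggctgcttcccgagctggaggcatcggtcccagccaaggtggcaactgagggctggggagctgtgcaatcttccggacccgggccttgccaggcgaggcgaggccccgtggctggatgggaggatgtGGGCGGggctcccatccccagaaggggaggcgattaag
The capitals are a TEAD match in Elf5, an AP-2 and an octamer match in Cdx2, and a GC box in Bmp4. Windows were found for 134 of the 170 higher genes and 75 of the 94 lower genes (178 and 95 windows). An AP-2 match stood in 23.6% of the windows of higher genes and 14.7% of those of lower genes, against 20.7% of windows of all tested genes. A TEAD match stood in 14% and 20.0% (10.3% over tested genes), an octamer in 1.69% and 7.37% (3.03%), and a SOX match in 14.6% and 16.8% (11.9%). The median GC content was 60.8% for higher and 56.8% for lower genes, and 60.0% over tested genes. These shares describe the letters of the windows and were not tested.

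**Figure D2:**
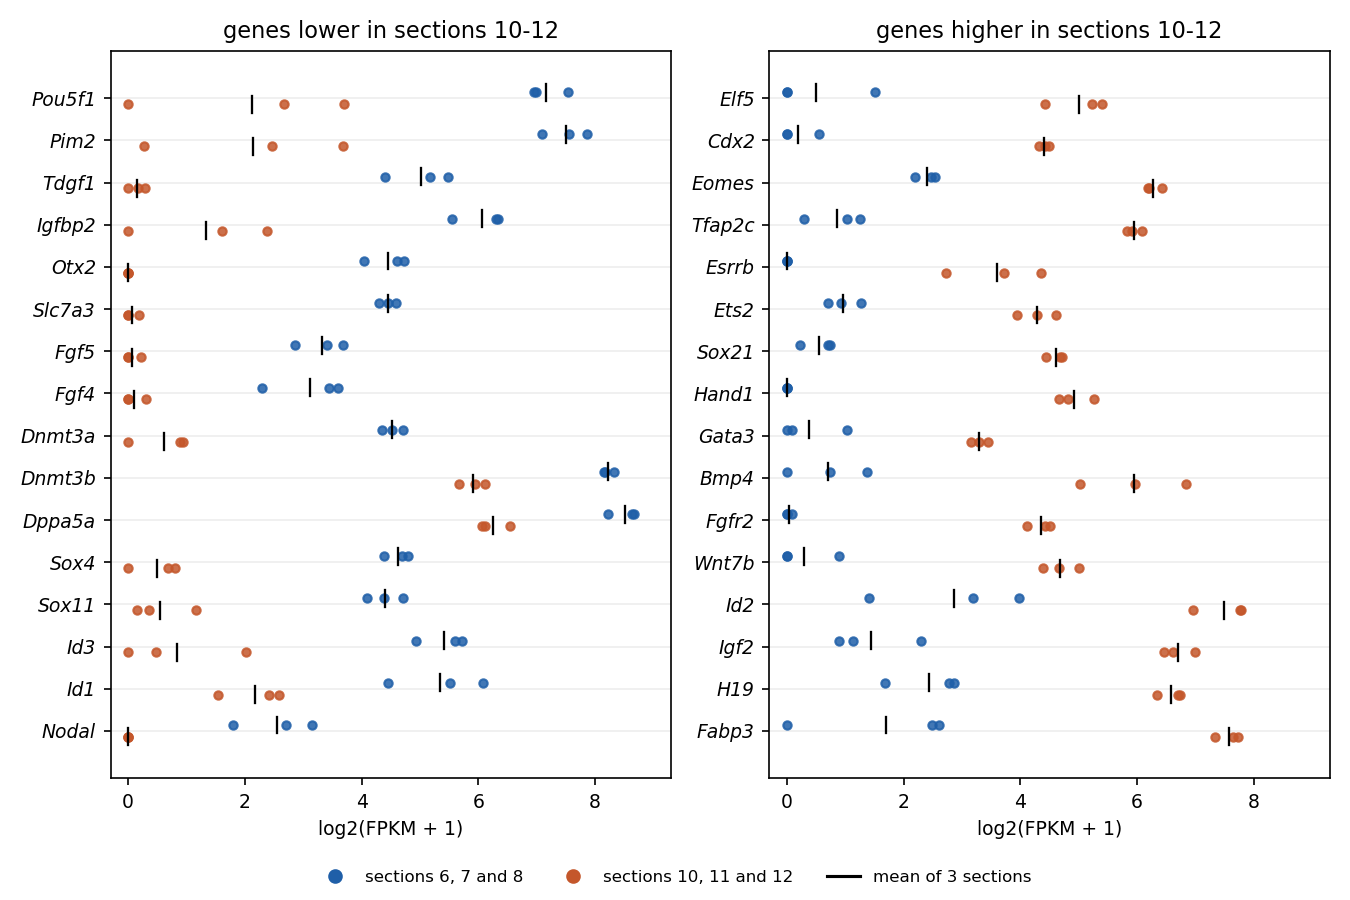
Level, log2(FPKM + 1), of 32 genes in each of sections 6, 7 and 8 (blue) and 10, 11 and 12 (orange), with a black tick at the mean of each side. Left, 16 genes lower and, right, 16 genes higher in sections 10-12; no gene's points overlap between sides, and the widest spreads in sections 10-12 are those of Pou5f1 (0 to 3.70) and Pim2 (0.28 to 3.68).

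In each signalling list a minority of genes passed, while over all tested genes the shares were 1.85% higher and 1.03% lower. In the FGF pathway 3 of 21 tested genes rose, 4 fell and 14 did not pass (median difference -0.35). The ligand Fgf4 was at 3.60, 3.44 and 2.30 and then at 0.31, 0 and 0 (-3.01 ± 0.60, adjusted p = 0.0239), while its receptor Fgfr2 was at 0, 0 and 0.09 and then at 4.50, 4.11 and 4.42 (4.32 ± 0.52, adjusted p = 0.00204). Ligand and receptor thus had their levels on opposite sides without overlap. Fgfr2 passed in every fit leaving out a section, and Fgf4 only without section 8 (adjusted p = 0.0644 to 0.0981 in the others). Fgfr1, the receptor of the epiblast, was at 2.44 to 2.82 and at 2.65 to 3.62 and did not pass (adjusted p = 0.685). The feedback genes did not move as a block: the phosphatase Dusp4 fell (-3.02 ± 0.58, adjusted p = 0.0196). In 5 of the fits leaving out a section its call was lost (adjusted p up to 0.08), with differences of -2.87 to -3.10. Spry2, Spry4 and Dusp6 did not pass, and Spry2 ran from 3.39 to 5.23 on one side and from 2.35 to 6.11 on the other.

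In the BMP pathway 3 of 16 tested genes rose and 2 fell (median difference -0.01). Bmp4, the ligand that the extraembryonic ectoderm sends to the epiblast, was at 0.73, 1.37 and 0 in sections 6-8 and at 6.85, 5.96 and 5.02 in sections 10-12, highest next to the border. It rose by 5.24 ± 0.58 (adjusted p = 0.00141), and its chromosome 14 locus runs from 46383525 to 46390669. Smad6, an inhibitory SMAD induced by BMP, was at 0.28 or less in sections 6-8 and at 4.10, 3.52 and 2.13 beyond (3.06 ± 0.65, adjusted p = 0.0336), but passed in only 1 of the fits leaving out a section (adjusted p up to 0.118). The ligands Bmp8a and Bmp8b and the receptors Bmpr1a, Bmpr2 and Acvr1 did not pass. The ID genes, small proteins that block bHLH factors and are classic BMP targets, went in opposite directions. Id2 was at 3.19, 3.98 and 1.41 and rose to 6.95, 7.76 and 7.78 (4.64 ± 0.58, adjusted p = 0.00213). Id3 was at 5.71, 5.60 and 4.94 and fell to 0, 0.48 and 2.02 (-4.58 ± 0.59, adjusted p = 0.00236). Id1 was at 4.45, 5.52 and 6.07 and fell to 1.54, 2.58 and 2.41 (-3.17 ± 0.52, adjusted p = 0.00857); it did not pass without section 7 (0.0726) or section 8 (0.0625).

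Because Id2 and Id3 belong to a family of close relatives and moved against each other, their upstream sequences are set side by side. They lie at chr12:25096093-25096342 on the minus strand and chr4:136143572-136143821 on the plus strand (GRCm38.p6, RefSeq).
Id2: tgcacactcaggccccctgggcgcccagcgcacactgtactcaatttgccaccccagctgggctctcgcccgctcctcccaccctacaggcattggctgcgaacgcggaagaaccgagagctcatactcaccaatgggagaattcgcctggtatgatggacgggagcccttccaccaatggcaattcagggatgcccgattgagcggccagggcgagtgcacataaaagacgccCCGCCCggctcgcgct
Id3: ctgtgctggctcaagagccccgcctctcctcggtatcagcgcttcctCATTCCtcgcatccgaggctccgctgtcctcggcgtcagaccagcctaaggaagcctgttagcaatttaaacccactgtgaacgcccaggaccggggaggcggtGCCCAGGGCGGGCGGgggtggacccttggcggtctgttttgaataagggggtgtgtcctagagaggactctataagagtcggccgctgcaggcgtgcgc
The Id2 window holds a GC box 16 bases before the start. The Id3 window holds an AP-2 match, a TEAD match and overlapping GC boxes whose first bases lie 94 and 90 bases before the start, within a run that also overlaps the AP-2 match.

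In the Nodal pathway 2 of 15 tested genes fell, 0 rose and 13 did not pass (median difference -0.22). Nodal itself was at 2.71, 1.80 and 3.15 and was listed at 0 in sections 10-12 (adjusted p = 0.0462), with its call lost whichever section was left out (adjusted p = 0.0659 to 0.126). Tdgf1 is the other. Furin and Pcsk6, proprotein convertases that cleave Nodal, were at 0.61 to 1.51 and 0 to 0.94 in sections 6-8 and at 1.19 to 2.04 and 1.94 to 3.07 in sections 10-12. Neither passed (adjusted p = 0.72 and 0.102). The receptors Acvr1b, Acvr2a and Acvr2b and the mediators Smad2, Smad3 and Smad4 did not pass either, nor did the cofactor Foxh1.

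Of 16 tested Wnt pathway genes 2 rose and 1 fell. Wnt7b, a Wnt ligand of the trophoblast, was at 0, 0 and 0.89 and then at 4.38, 4.998 and 4.67 (4.39 ± 0.53, adjusted p = 0.00204). Wnt6 was listed at 0 in sections 6-8 and stood at 3.11, 2.97 and 3.05 (adjusted p = 0.0145), with its call lost without section 6, 7, 8 or 11 (0.0508 to 0.0725). The receptor Fzd7 ran the other way, from 2.85, 3.04 and 3.92 to 0.26, 1.16 and 0.42, and its call did not survive the loss of any 1 section (adjusted p = 0.0761 to 0.135). Among 10 tested ephrins and Eph receptors, the ephrin-A ligands Efna3 and Efna4 rose, to 2.59 to 4.30 and 4.63 to 4.90, each passing in only 1 fit leaving out a section (adjusted p up to 0.0739 and 0.101). None of the 6 tested Notch pathway genes passed.

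The SOX family crossed the border in both directions. Of its tested members Sox21 rose and Sox4 and Sox11 fell. Sox21, a SOXB2 factor known in trophoblast stem cells, was at 0.22, 0.71 and 0.74 and then at 4.44, 4.69 and 4.71 (4.06 ± 0.49, adjusted p = 0.00204). Sox11, the SOXC relative of Sox4, went from 4.39, 4.09 and 4.71 to 0.35, 0.15 and 1.16 (-3.84 ± 0.54, adjusted p = 0.00382). Sox2, Sox3, Sox12 and Sox13 did not pass, and Sox3 spanned 0.50 to 4.61 in sections 10-12. Sox21, Sox4 and Sox11 each passed in all 6 fits leaving out a section.

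Genes of the primitive streak and germ line, which form later at or near this border, passed in both directions. Of 5 tested streak genes, T and Eomes rose, Nodal fell and 2 did not pass. Of 3 tested genes of germ cell precursors, Tfap2c rose, Ifitm3 fell and 1 did not pass. T (Brachyury), the T-box factor of the streak, was at 0.81, 0 and 0 and then at 3.62, 2.90 and 2.64 (2.79 ± 0.60, adjusted p = 0.034), with its call lost in each fit leaving out a section (adjusted p up to 0.128). Ifitm3, a membrane protein also known as Fragilis in germ cell precursors, went from 4.50, 5.09 and 5.08 to 1.58, 0 and 0 (-4.36 ± 0.58, adjusted p = 0.00267).

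Genomic imprinting leaves only the maternal or the paternal copy of a gene active. Of 22 tested imprinted genes, 4 rose, 1 fell and 17 did not pass (median difference 0.84), where 1.85% of all tested genes rose and 1.03% fell. Igf2, the fetal growth factor, was at 0.89, 2.29 and 1.14 and then at 6.47, 6.999 and 6.61 (5.252 ± 0.46, adjusted p = 0.000586). H19, the noncoding RNA next to it, was at 2.87, 1.68 and 2.77 and then at 6.73, 6.70 and 6.34 (4.15 ± 0.41, adjusted p = 0.000971). They are neighbours on chromosome 7, H19 from 142575530 to 142578146 and Igf2 from 142650768 to 142666816 (GRCm38.p6). Sfmbt2, a Polycomb-group gene imprinted in trophoblast, went from 0.81, 0 and 0.21 to 5.41, 4.92 and 4.63 (4.65 ± 0.51, adjusted p = 0.00141). Peg10, a placental gene of retrotransposon origin, rose by 2.61 ± 0.55 (adjusted p = 0.032) and Nnat fell to a listing of 0 (adjusted p = 0.0176). Peg10 lost its call in each fit leaving out a section (adjusted p up to 0.11) and Nnat in 5 of 6 (up to 0.0742).

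The X chromosome held 26 of the 264 called genes. Of its 320 tested genes 17 were higher (5.31%) and 9 lower (2.81%), while on the autosomes the shares were 0% to 3.18% higher and 0.351% to 2.23% lower. The median difference of X-linked genes was -0.17. Rhox5, the founding gene of the reproductive homeobox cluster, was at 2.86, 4.08 and 0.57 and then at 8.60, 8.41 and 7.60 (5.70 ± 0.72, adjusted p = 0.00221). Rhox4b was listed at 0 in sections 6-8 and at 5.16, 5.61 and 3.90 beyond (adjusted p = 0.00204); near-identical Rhox4 copies share reads, so its level is uncertain. Trap1a, a tumour rejection antigen gene that had been placed in the epiblast list, was the member of that list that rose, from 1.28, 1.96 and 0.68 to 6.49, 6.12 and 6.20 (4.96 ± 0.45, adjusted p = 0.000586). Morc4, a MORC family ATPase, went from 0.14, 1.08 and 0.30 to 5.80, 5.86 and 5.79 (5.31 ± 0.46, adjusted p = 0.000586), and its levels in sections 10, 11 and 12 had an SD of 0.039.

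Outside these groups, the largest rise of a named gene with a mean FPKM of at least 5 was that of Fabp3, a fatty acid binding protein, at 0, 2.60 and 2.48 and then 7.73, 7.64 and 7.33 (5.87 ± 0.62, adjusted p = 0.00137). Ndrg1, a stress-responsive gene, was listed at 0 in sections 6-8 and stood at 5.35, 5.17 and 4.85 (adjusted p = 0.00078), as did the calcium-binding S100a13 at 4.33, 4.08 and 5.24 (adjusted p = 0.00204). Rtn1, a reticulon of the endoplasmic reticulum, went from 0, 0 and 1.73 to 4.87, 6.32 and 4.95 (4.81 ± 0.64). S100a6 rose from 4.73, 2.83 and 1.08 to 7.59, 7.73 and 6.98 (4.55 ± 0.73, adjusted p = 0.00794), and did not pass without section 7, 10 or 11 (adjusted p = 0.0575 to 0.0664). On the other side, Pmaip1 (NOXA), an apoptosis activator, went from 4.48, 4.45 and 4.98 to 0.72, 1.15 and 0 (-4.01 ± 0.53, adjusted p = 0.00254), and Tceal8 fell by 3.98 ± 0.47. Mdk, the growth factor midkine, fell from 7.77, 7.08 and 6.14 to 3.80, 3.58 and 0, and Tcea3, an elongation factor, from 2.93, 4.47 and 4.98 to 0 throughout. Mdk lost its call without section 6, 7, 8 or 11 (adjusted p = 0.0575 to 0.122) and Tcea3 without section 7 (0.0602). The histone gene Hist3h2ba also fell (adjusted p = 0.0253), but passed in only 1 fit leaving out a section (adjusted p up to 0.139).

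Of 26 adhesion, polarity and tight junction genes 3 rose, 0 fell and 23 did not pass (median difference 0.53), where 1.85% of all tested genes rose. Cldn4, a claudin, went from 0, 2.28 and 2.11 to 4.79, 5.62 and 5.05, and Ezr, which links membrane to actin, from 4.43, 4.31 and 4.28 to 6.14, 6.34 and 5.88. Both missed the threshold without section 11 (adjusted p = 0.0761 and 0.0719), and also without section 12 for Cldn4 (0.054) and section 7 for Ezr (0.0559). Perp, a desmosome protein, rose from 0, 0 and 0.23 to 3.88, 4.02 and 3.52 (adjusted p = 0.00493). Krt18 was the 1 of 7 keratin and filament genes to pass, from 5.15, 4.88 and 4.61 to 6.37, 6.09 and 6.27, and it lost its call whichever section was left out (adjusted p = 0.0739 to 0.113). Of 12 immediate early and stress genes, Fos, Ier3 and Gadd45b rose, and each was lost in at least 4 fits leaving out a section (adjusted p up to 0.0927).

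Of 20 genes of glycolysis and glucose transport, the glucose transporter Slc2a3 alone passed, from 2.06, 2.48 and 0.91 to 3.93, 4.24 and 5.003 (2.58 ± 0.55, adjusted p = 0.0345), with its call lost whichever section was left out (up to 0.127). Of 12 fatty acid binding and lipid genes, Fabp3 and Agpat9 rose, and of 27 solute carriers Slc38a4 rose and Slc7a3 fell. Agpat9 lost its call without section 7 (adjusted p = 0.0525) and Slc38a4 without any 1 section (up to 0.143). In limma, none of 22 cholesterol synthesis, 26 cell cycle, 23 cytosolic ribosomal protein and 23 respiratory chain genes passed, with median differences of 0.41, -0.02, -0.19 and -0.23. Only 2.88% of all tested genes passed, so 0 calls in lists of this size lies near that share and does not show unchanged levels. The cell cycle gene Pcna was at 6.70, 6.79 and 6.70 and at 6.16, 6.70 and 5.96. In the visceral endoderm list Rhox5 alone of 18 passed, and it is also an extraembryonic ectoderm gene. In the distal and anterior visceral endoderm list of 6, Otx2 and Tdgf1 fell, both of which are in the epiblast list as well.

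**Figure D3:**
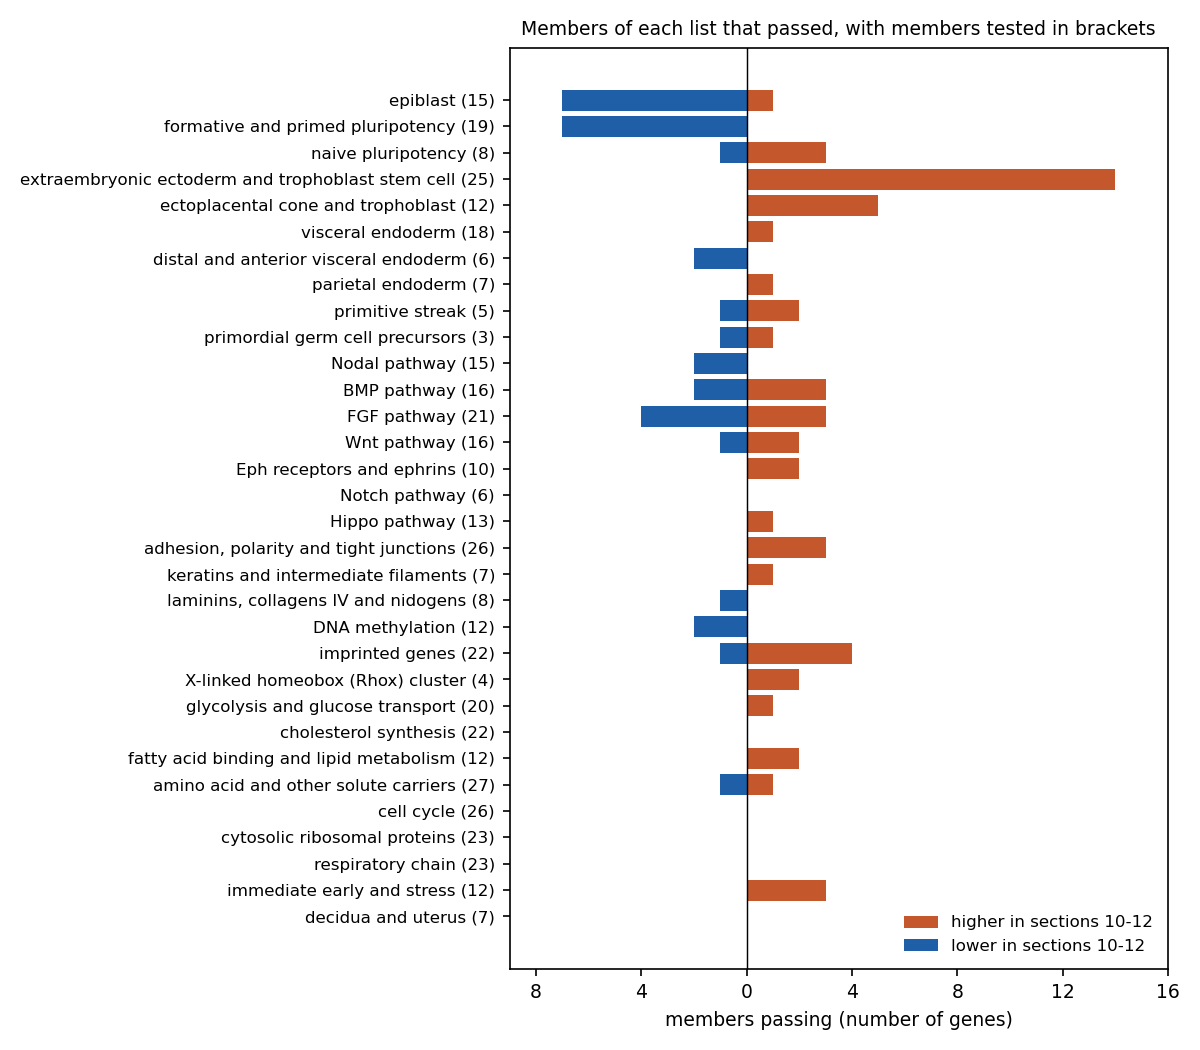
Number of genes that passed in each list with at least 3 tested members, higher in sections 10-12 to the right (orange) and lower to the left (blue), with the number tested in brackets. The extraembryonic ectoderm list has 14 higher genes and no lower one, and the epiblast list 7 lower and 1 higher. The cholesterol, cell cycle, ribosomal protein and respiratory chain lists have none, where 2.88% of all tested genes passed.

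Most of the calls between neighbouring windows fell at the step over section 9. In a fit of 4 windows of 3 sections each (10537 genes), 235 genes passed from 6-8 to 10-12 (2.23%), 156 higher and 79 lower (131, 139, 138 and 155 genes without section 6, 7, 8 or 12). From 3-5 to 6-8, limma passed 0 genes (0.0%; 644 at an unadjusted p under 0.05), but 42 without section 5 and 1 without section 6. From 10-12 to 14-16, 15 genes passed (0.142%; 802 at an unadjusted p under 0.05), 7 higher and 8 lower, and 6, 4, 9, 9, 28 and 8 without section 6, 7, 11, 12, 14 or 16. Neighbouring steps share sections and span unlike distances, since sections 3-5 and 6-8 adjoin while each later step skips a section. The steps are therefore given side by side only. Detected genes numbered 5303, 5576 and 7689 in sections 3, 4 and 5, and the part of this in the step to 6-8 was not tested. For the 170 higher genes the median level was 0.52 to 0.65 in sections 6-8, 4.23 to 4.43 in sections 10-12 and 3.65 to 4.12 in sections 14-19. For the 94 lower genes it was 4.18 to 4.48 in sections 6-8 and 0.20 to 0.51 in sections 10-12, and 0 to 0.96 in sections 14-19. Sections 6-8 and 10-12 chose these genes, so only the other sections add to the description.

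**Figure D4:**
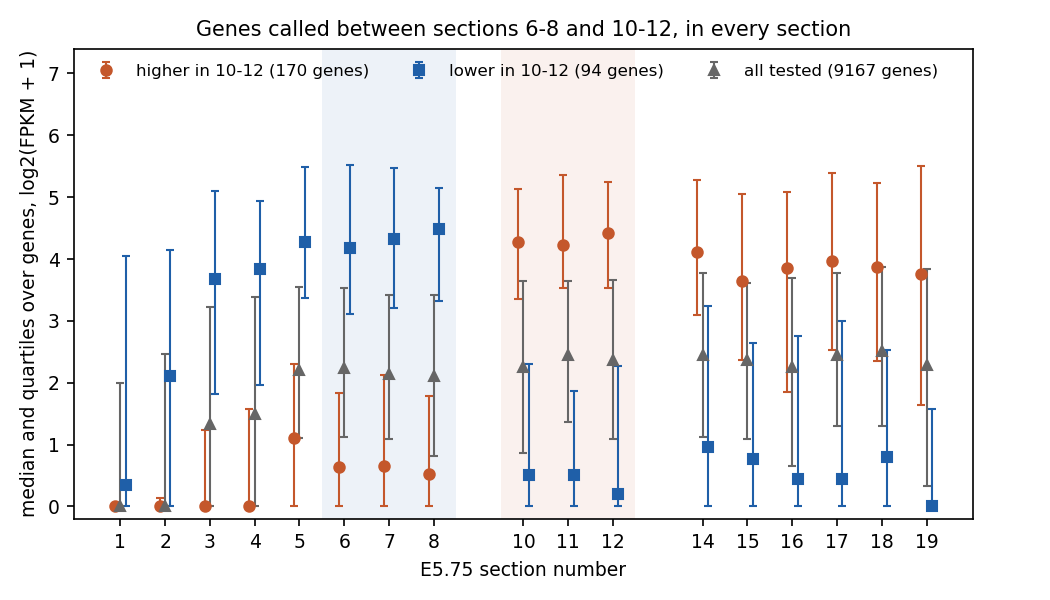
Median level with quartiles over genes, log2(FPKM + 1), in each numbered E5.75 section, for the 170 higher genes (orange circles), the 94 lower genes (blue squares) and all 9167 tested genes (grey triangles); shading marks sections 6-8 and 10-12. The orange medians step from at most 0.65 in sections 6-8 to at least 4.23 in sections 10-12 and stay above 3.6 through section 19, and the blue medians do the reverse.

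The step from 10-12 to 14-16 had 15 called genes, and these calls depend on the scale: with a pseudocount of 0.1 limma passed 0 (668 at an unadjusted p under 0.05), and 1 passed with an FPKM filter of 5. Sox2, which did not pass at the border, was at 4.98, 4.65 and 4.39 in sections 10-12 and at 1.05, 0 and 0 in sections 14-16 (-4.33 ± 0.61, adjusted p = 0.0139). Esrrb was at 4.35, 3.73 and 2.73 and then at 0, 0 and 0.11 (-3.57 ± 0.52, adjusted p = 0.0139), and so was measured above 1 in sections 10-12 alone of all numbered sections from 3 to 19. Bmp4 fell from 6.85, 5.96 and 5.02 to 2.81, 2.32 and 0 (-4.23 ± 0.76, adjusted p = 0.0375), Pou3f1 from 5.73, 5.91 and 5.71 to 3.67, 3.75 and 2.48 (-2.48 ± 0.43, adjusted p = 0.0288), and T to a listing of 0 (adjusted p = 0.0237). In the other direction Ascl2, a bHLH factor of the ectoplacental cone, was at 2.13, 0 and 0.87 and then at 3.88, 5.08 and 5.91 (3.96 ± 0.73, adjusted p = 0.0468), and Krt7, a trophoblast keratin, was at 0.73, 0.51 and 0 and then at 3.82, 4.14 and 4.59 (3.77 ± 0.56, adjusted p = 0.0139). Sox2, Esrrb and Scarf2 passed in all 12 fits leaving out a section, and Krt7 in 11 (0.0623 without section 12). T passed in 9 (adjusted p up to 0.0666), Pou3f1 in 6 (up to 0.11), Bmp4 in 4 (up to 0.165) and Ascl2 in 2 (up to 0.162).

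**Figure D5:**
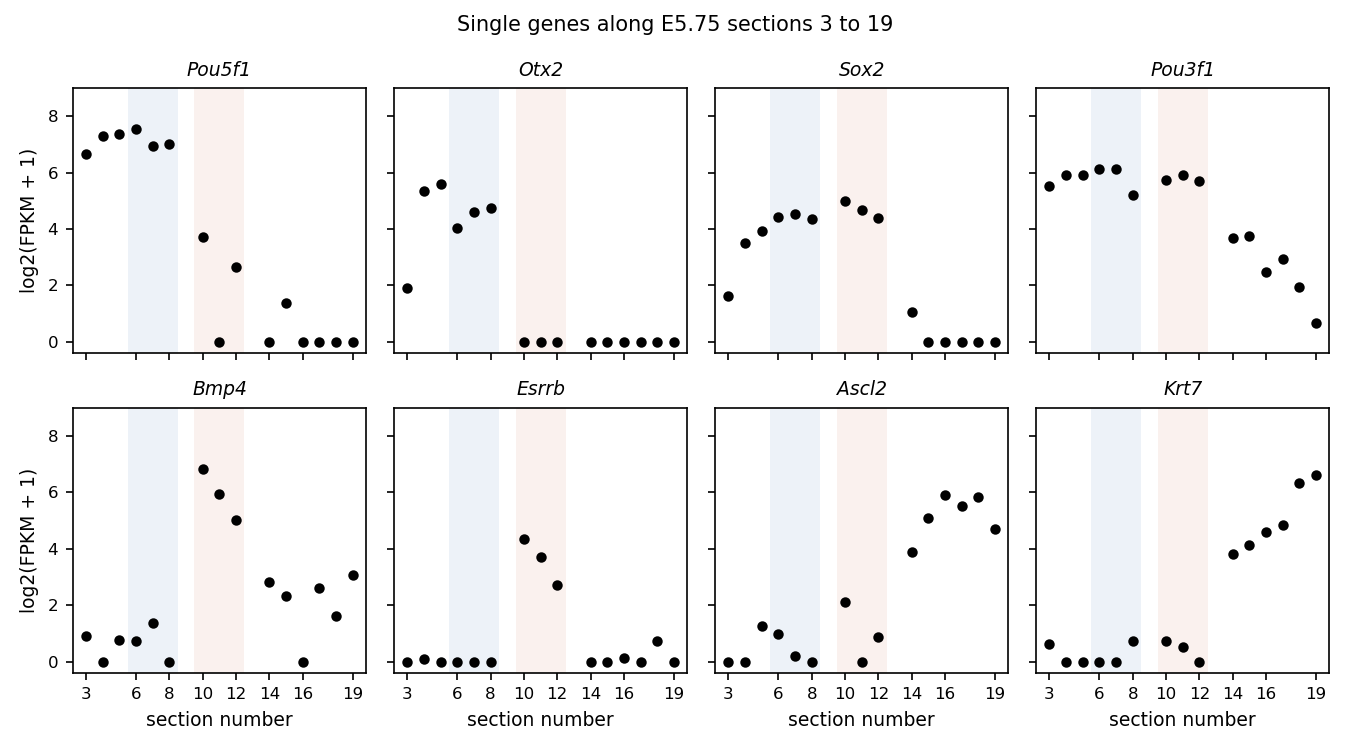
Level, log2(FPKM + 1), of 8 genes in each numbered E5.75 section from 3 to 19, 1 point per section, with sections 6-8 (blue) and 10-12 (orange) shaded. Pou5f1 and Otx2 drop at the border, Sox2 and Pou3f1 continue across it, Bmp4 and Esrrb are highest in sections 10-12, and Ascl2 and Krt7 are low there and high from section 14 on.

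Sections that had no part in choosing the genes gave the same directions for most of them. Sections 3, 4 and 5 had 5303, 5576 and 7689 detected genes. In sections 14, 15 and 16 there were 7718, 7818 and 7178. The part of this unevenness in the differences was not tested. Between sections 3-5 and 14-16, 109 of 8952 genes were higher (1.22%) and 44 lower (0.492%), with a median difference of 0.375; with quantile normalization the calls were 84 and 64. Without section 3, 4, 14, 15 or 16 the total of 153 came to 69, 76, 20, 26 and 12. Of the 161 higher border genes tested there, 158 had the same direction and 60 passed in it. Of the 90 lower border genes, 85 had the same direction and 26 passed. None passed in the opposite direction, and over all genes 64.7% of differences were positive. Tfap2c (6.33, adjusted p = 0.000184), H19 (6.36, adjusted p = 0.000228) and Pou5f1 (-6.65, adjusted p = 0.00018) were among those that passed in limma. Bmp4 (1.15, adjusted p = 0.486), Sox21 (1.42, adjusted p = 0.337) and Ifitm3 (0.07, adjusted p = 0.988) did not pass there, nor did Cdx2, listed at 0 in sections 3-5 (adjusted p = 0.259).

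At E5.5, in a separate embryo as far as the stage labels go, a line was fitted to level against section number over 9 sections. The sections with low numbers stood apart: genes that every cell uses were listed at 0, Rps14 in section 1 and Rpl18, Uqcrh and Pcna in sections 1 and 2. The part of this in the slopes was not tested. In the fit, 2332 of 8251 genes rose (28.3%) and 215 fell (2.61%), and with quantile normalization 844 rose and 324 fell. Of the 162 higher border genes tested, 151 rose in sign and 101 passed upward, where 78.4% of all genes had a positive slope. Of the 81 lower border genes, 47 had a negative slope and 6 passed downward, and 4 passed upward. Dppa5a was 1 of those 4, and Dppa5a was at 6.88 to 8.18 in sections 4 to 10 of E5.5, including the sections where Elf5 was at 3.58 to 4.75, whereas at E5.75 it fell at the border. Pou5f1, at 3.30 to 5.68 in sections 2, 4 and 5 of E5.5 and listed at 0 in sections 1 and 6 to 10, did not pass (adjusted p = 0.152). In simulated data of this design, only genes with a mean level above 4 were changed. Of those changed 8-fold 9.09% were called. The simulation changed 67, 67 and 66 genes by 2-fold, 4-fold and 8-fold, whereas 2547 genes passed in the real fit. The adjusted threshold was therefore stricter in the simulation, and its rate does not carry over to the real fit. A missing call does not show an unchanged level. Fgfr2 rose at both stages, to 2.89 in section 10 of E5.5 (adjusted p = 0.00417).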

How the data were processed

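The data are expression values of laser-captured sections of mouse embryos. Per the submitters' processing notes, TopHat2 2.0.4 and Cufflinks 2.0.2 were used with the mouse build mm10; settings, annotation and strand are not given in the sources used here. The authors deposited 1 table per stage, whose values fit log2(FPKM + 1) and were used as such. The unit was read from the values. Depth per sample is unknown, and an exact 0 can be a failed estimate.

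A gene entered the test when 2 or more of the 6 sections reached an FPKM of 1. Testing was done with limma 3.58.1 (R 4.3.3; empirical Bayes with trend, 2-sided, Benjamini-Hochberg threshold 0.05), sections 6-8 against 10-12. The same test was run on sections 3-5 against 14-16, on a fit of 4 windows and on a line over E5.5 section number, where the columns of section 10 and 11 were averaged because labels and column names disagree. The fits were tested on simulated data. The changed genes were drawn from those with a mean level above 4, so the rates do not cover genes at lower levels. In the border design 74.6% of genes changed 4-fold and 5.97% of those changed 2-fold were called. In the fit of 4 windows the rates were 55.2% and 5.97%, and in the E5.5 line 0% of each and 9.09% of those changed 8-fold. The E5.5 rates do not carry over to the real E5.5 fit, where far more genes passed than were changed in the simulation.

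Named genes were the 15 largest rises and 15 largest falls among passing genes with a mean FPKM of 5 or more, gene models left out; up to 4 members of each list by p; families with members passing in both directions (2 of 25); and the epiblast, formative, extraembryonic ectoderm, Nodal, BMP and FGF lists. Tissue markers and the genes of the step from 10-12 to 14-16 are named beside these. The 33 gene lists, the sections and the motifs were chosen with earlier results of these data known. Families in the closing observations were chosen after their values were seen. RefSeq (GRCm38.p6) matched 8957 of 9167 tested genes by symbol or synonym and gave coordinates and 250-base upstream windows. Alternatives covered the pseudocount (0.1, 5), filters, scaling, the variance model, the windows and leaving out each section. Both libraries marked VE were left out of all tests.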

Additional observations from a re-analysis of the deposited data

How the results depend on the processing

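The 238 named genes had 4347 results under the alternatives. Among the results of the 93 named genes that passed, 0 reversed direction and 380 no longer passed. Among those of the other named genes, 53 came to pass, and their changes of sign were not counted. The border count of 264 was 201 to 333 under both pseudocounts, stricter filters, both rescalings, both variance models and a term for detected genes. It was 156 with no filter on low values, 27 for sections 7-8 against 10-11, 547 for sections 5-8 against 10-14, and 107 to 171 leaving out 1 section. The outer count of 153 was 75 with a pseudocount of 0.1, 60 with no filter, 1151 for sections 1-5 against 14-19, and 12 to 151 leaving out 1 section. In the fit of 4 windows, the step from 3-5 to 6-8 gave 0 to 42 and the step from 6-8 to 10-12 gave 131 to 267 leaving out 1 section. The step from 10-12 to 14-16 gave 4 to 28 in those fits, 0 with a pseudocount of 0.1 (668 at an unadjusted p under 0.05, limma) and 1 at an FPKM of at least 5. With quantile normalization, which forces equal distributions, the E5.5 count of 2547 was 1168 (844 rising, 324 falling) and the median border difference moved from 0.09 to -0.02. The cause of these changes was not tested, and fits that leave out a section also hold fewer sections. No paired analysis was possible because the numbers are positions along the embryo and sections 6-8 and 10-12 share none. In simulated data for the border, where only genes with a mean level above 4 were changed, 90.9% of those changed 8-fold were called. Few of those changed 2-fold were called.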

Other observations

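Single members of several further gene groups passed at the E5.75 border; they were picked after their values were seen, so they are descriptions, and adjusted p-values are limma's. Of 7 annexins, which bind membranes in the presence of calcium, Anxa2 and Anxa5 were listed at 0 in sections 6-8 and stood at 4.62, 3.87 and 4.44 and at 5.52, 4.11 and 4.02 in sections 10-12. Irx2, an Iroquois homeobox factor, was listed at 0 and then stood at 3.31, 4.38 and 3.95 (adjusted p = 0.00495). On the epiblast side, Phc1, a Polycomb repressive complex subunit, fell from 5.53, 4.92 and 4.53 to 0.67, 1.87 and 1.59, the 1 of 3 Polyhomeotic genes that passed. Bst2 (tetherin), a membrane protein induced by interferon, went from 6.74, 6.75 and 6.82 to 1.76, 4.38 and 3.47 and lost its call without section 6, 7 or 8 (adjusted p = 0.0556 to 0.0599). The gene model Gm1673 had the largest rise of all tested genes, from 1.44, 1.75 and 0 to 8.22, 7.87 and 7.72.

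Neighbouring Bex and Tceal genes of the X chromosome moved in opposite directions. They lie between 136066565 (the start of Bex2) and 136271978 (the end of Ngfrap1) in GRCm38.p6. Of 7 tested, Tceal8, Bex4 and Bex2 fell and Ngfrap1 and Bex1 rose. Tceal8 was at 4.93, 4.66 and 5.06 in sections 6-8 and at 0.53, 1.20 and 0.96 in sections 10-12. Ngfrap1 was at 6.27, 6.13 and 5.47 and then at 7.64, 7.57 and 7.98. Bex4 went from 6.19, 5.45 and 4.9998 to 2.99, 3.66 and 2.78. Tceal8 kept its call in all 6 fits leaving out a section and Ngfrap1 in 5 (adjusted p = 0.052 without section 11). Bex4 lost it without section 6, 7, 10 or 12 (adjusted p = 0.0568 to 0.0846), and Bex1 and Bex2 in every such fit (up to 0.106 and 0.168).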
